A study of Mus musculus with 6 samples.

Results

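The 9 genes described here encode adrenergic receptors and the first steps of cAMP signaling in fat: the receptors Adrb1, Adrb3, Adra1a and Adra2a, the G protein α subunits Gnas and Gnao1, the adenylyl cyclase Adcy3 and the phosphodiesterases Pde3b and Pde4d. They were chosen by gene symbol from a deposited RNA-Seq table of inguinal white adipose tissue (iWAT), and all 9 were found among its 16538 genes. Their levels were compared between 2 groups of 3 samples, control and AKO, in the depot where beige adipocytes, the heat-producing fat cells of white fat, are induced by cold. The AKO mice were bred to lack Nrg4, which encodes the adipose hormone neuregulin 4, in adipocytes, through floxed Nrg4 alleles and a Cre recombinase under the adiponectin promoter. The control mice were floxed littermates by the study's text and are called wt in the labels. All mice were housed in the cold, at 8 °C, for 10 days by the labels and for a longer period by the study's text. For each of the samples, RNA of 2 mice with the same genotype was combined. P-values here measure the spread between these pools of mice, and an age for these mice was not given in the sources used here.

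In the cold, sympathetic nerves release norepinephrine onto adipocytes. β-Adrenergic receptors couple to the stimulatory G protein Gs, which activates adenylyl cyclase, and the cAMP made by the cyclase activates protein kinase A (PKA), which drives lipolysis and, through CREB and related transcription factors, the transcription of Ucp1 and other thermogenic genes. The α2 receptors couple to the inhibitory proteins Gi and Go, the α1 receptors signal mainly through Gq and calcium, and phosphodiesterases end the signal by degrading cAMP.

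Of the 9 genes, 8 had a lower mean in AKO iWAT and 1, Adra2a, a higher mean. Adcy3 and Gnao1 were furthest from control, at 0.611 and 0.608 times the control mean, followed by Adra1a at 0.665 times, and the most abundant adrenergic receptor mRNA, Adrb3, was at 0.830 times. None of the 9 passed limma, a linear model fitted to all genes, at a Benjamini-Hochberg adjusted p under 0.05, where 2 of the 13855 genes tested (0.0144%) were called in either direction. edgeR's quasi-likelihood test also called none of them, against 0.0144% of all genes. DESeq2, run on reads recovered from the same values, called 3 of the 9 as lower, Adcy3, Gnao1 and Adra1a, against 0.757% of the genes it tested called lower and 0.241% called higher. At an unadjusted limma p under 0.05, 5 of the 9 were lower in AKO and 0 were higher, against 4.69% and 4.41% of all genes. In the same 5 genes, Adrb1, Adra1a, Gnas, Gnao1 and Adcy3, every AKO sample lay below every control sample, which held for 8.31% of all genes, and none of the 9 had every AKO sample above, which held for 6.14%.

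**Figure D1:**
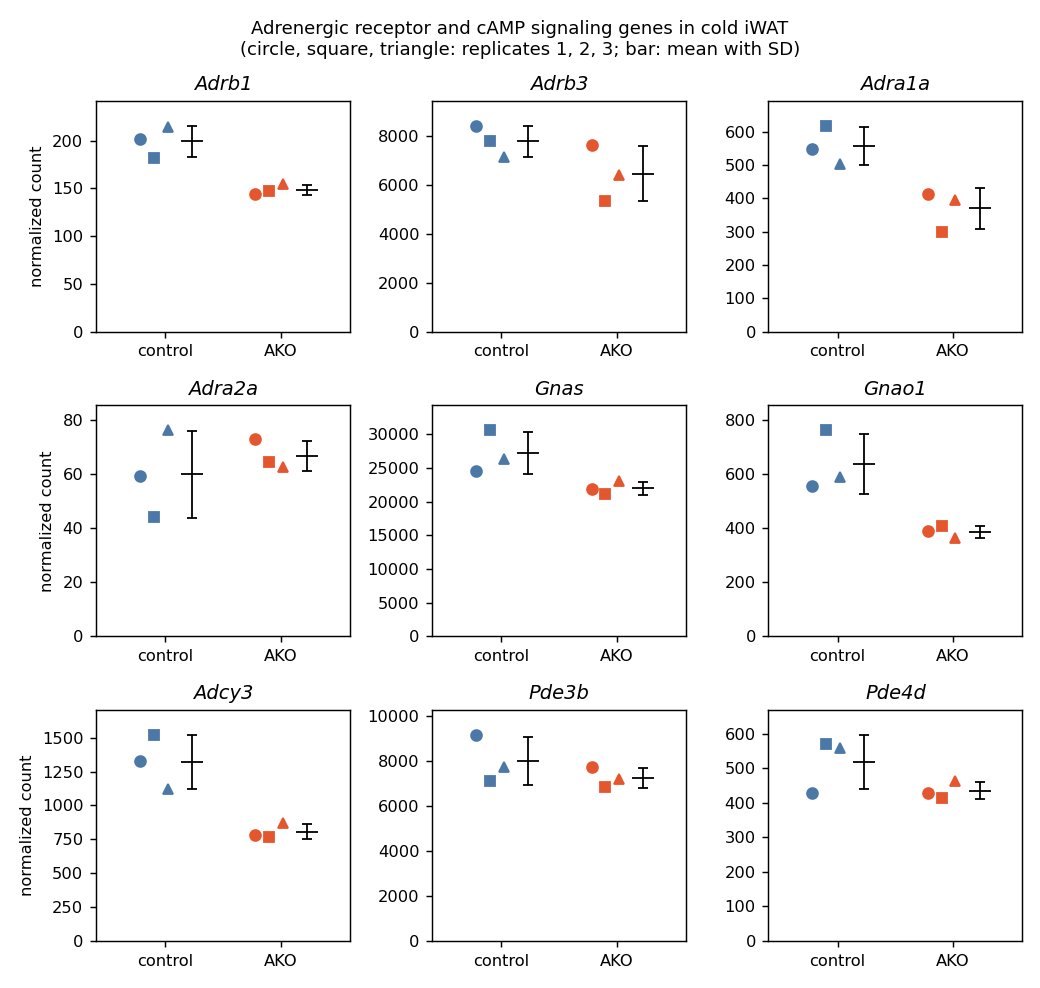
Normalized counts (y axis, starting at 0) of the 9 genes in the 3 control and 3 AKO samples, with the symbol giving the replicate number and the bar the mean with its SD. The AKO points lie below all control points for Adrb1, Adra1a, Gnas, Gnao1 and Adcy3, and the groups overlap for Adrb3, Adra2a, Pde3b and Pde4d.

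The libraries held 17570335 to 18373707 reads on the listed genes, and their values are read counts divided by a size factor, here called normalized counts. The targeted gene, Nrg4, had 3128, 3102 and 3092 normalized counts in control and 2577, 2627 and 2691 in AKO. It was therefore lower in every AKO sample, at 0.847 times the control mean (limma log2 fold change −0.24, SE 0.05, adjusted p = 0.298). The table gives 1 count for the whole gene, so the deleted exons were not checked on their own. Skeletal muscle mRNA differed strongly between the pools: the summed level of 20 muscle markers was 873 to 32194 normalized counts in control and 23883 to 136352 in AKO. The summed adipocyte markers ranged from 861271 to 906573 in control and from 719595 to 837025 in AKO, and Adipoq (adiponectin) was at 0.939 times the control mean with overlapping groups. In such bulk tissue, fewer cells of a type and less RNA per cell cannot be told apart.

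Adrb3, the β-receptor typical of adipocytes, had 8443, 7806 and 7170 normalized counts in control and 7636, 5366 and 6434 in AKO. 1 AKO pool lay within the control range and the other 2 lay below it. The means were 7806 ± 636 and 6479 ± 1136 (SD, n = 3 each), a log2 fold change of −0.28 (SE 0.13, limma adjusted p = 0.564; exact permutation p = 0.2, two-sided). The value depended on single pools, at −0.15 without AKO replicate 2 and −0.41 without AKO replicate 1. With the muscle marker score as a covariate, the log2 fold change was −0.16. Adrb3 lies on chr8:27225776-27250616 of GRCm38, minus strand, and 24.9% of its exonic bases are also annotated to an antisense gene that has no row in the table. Divided by exon length, Adrb3 made up 86.7 ± 1.20% of the level of all 9 adrenergic receptor genes in control and 86.3 ± 1.35% in AKO (SD, n = 3), so its share differed by less than its spread. The share of Adra1a was 2.21 to 2.64% in control and 1.84 to 2.03% in AKO, ranges that did not meet.

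Adrb1, the β1-receptor, had 201.7, 181.7 and 214.5 normalized counts in control and 144.0, 147.4 and 154.3 in AKO. All 3 AKO pools were lower than all 3 control pools. The means were 199 ± 16.5 and 149 ± 5.20, a log2 fold change of −0.42 (SE 0.10, limma adjusted p = 0.349), and the exact permutation p of 0.1 is the smallest that 3 against 3 samples allow. The SD of the AKO pools was below the 12.4 that read counting alone gives on average at this depth. Over all 28 alternative settings the fold change stayed between −0.48 and −0.36, and no setting called it. Per kilobase of exon, Adrb1 was at 58.9 in control and 43.9 in AKO, beside 2312 and 1919 for Adrb3. Over the 8 adrenergic receptor genes tested, 5 were lower and 3 higher, with a median log2 fold change of −0.10.

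Adrb1 (chr19:56722199-56733113, plus strand, GRCm38) is shown with its promoter because PKA acts on transcription through CREB, which binds the sequence TGACGTCA or its shorter core TGACG. The 250 bases before its RefSeq start, chr19:56721867-56722116 (GRCm38.p6, plus strand), hold the core once, in capitals, starting 90 bases before the start site.
Adrb1 promoter: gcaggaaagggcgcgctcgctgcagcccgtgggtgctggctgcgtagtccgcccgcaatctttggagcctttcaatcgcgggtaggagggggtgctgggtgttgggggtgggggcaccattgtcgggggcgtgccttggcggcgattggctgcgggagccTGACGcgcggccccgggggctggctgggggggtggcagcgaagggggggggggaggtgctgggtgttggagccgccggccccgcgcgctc
Of 32851 RefSeq promoter windows of this length, 17.8% hold the core on either strand and 1.55% the full sequence. Promoter windows were found for 6 of the 9 genes, and 5 of their 10 windows hold the core, while none holds the full sequence. These are 4 positions in 3 genes, since 3 of the 5 windows belong to Gnas and a pair of them overlap at the same site. A match describes the letters in the window and says nothing on binding in this tissue.

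Adra1a, an α1-receptor, had 546.9, 618.3 and 504.2 normalized counts in control and 413.9, 300.7 and 395.3 in AKO. The highest AKO pool lay well below the lowest control pool. The means were 556 ± 57.7 and 370 ± 60.7, a log2 fold change of −0.60 (SE 0.14, limma adjusted p = 0.304; exact permutation p = 0.1). DESeq2 called it (adjusted p = 0.0160), but when 1 sample at a time was left out the call was kept only without control replicate 3 (adjusted p = 0.0382) or AKO replicate 1 (adjusted p = 0.0164), and was lost without any of the other 4 samples, where the adjusted p reached up to 0.362. The DESeq2 call was also lost with the muscle score as a covariate, at an adjusted p of 0.217 and a log2 fold change of −0.60. Adra1a lies on chr14:66635251-66771168, plus strand. The other α1-receptors overlapped between groups, Adra1d with means of 275 ± 21.7 and 242 ± 38.5 and Adra1b with 36.0 ± 14.2 and 42.2 ± 4.43.

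Adra2a, the α2-receptor that opposes β-receptors through Gi, was the only one of the 9 with a higher AKO mean. It had 59.2, 44.1 and 76.2 normalized counts in control and 73.0, 64.4 and 62.7 in AKO, and all AKO values lay inside the control range. The means were 59.8 ± 16.1 and 66.7 ± 5.52, a log2 fold change of 0.19 (SE 0.22, limma adjusted p = 0.853; exact permutation p = 0.5). Without control replicate 2 the log2 fold change was −0.0137. Adra2a is a single-exon gene on chr19:54044151-54048982, plus strand. Of the other α2-receptors, Adra2c averaged 12.6 ± 6.51 and 12.9 ± 2.7 normalized counts, and Adra2b was under the minimum mean of 10.

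Gnas, which encodes the Gs α subunit, was the most abundant of the 9 genes per kilobase, at 2431 in control and 1969 in AKO. It had 24624, 30654 and 26313 normalized counts in control and 21828, 21137 and 23096 in AKO, with no overlap between groups. The means were 27197 ± 3110 and 22020 ± 994, a log2 fold change of −0.30 (SE 0.10, limma adjusted p = 0.472; exact permutation p = 0.1). DESeq2 gave an adjusted p of 0.0734, and called Gnas in the fits without control replicate 1 (adjusted p = 0.0103) and with the muscle score as a covariate (adjusted p = 0.00253, log2 fold change −0.42). Leaving out any other sample gave no DESeq2 call (adjusted p 0.209 to 0.425), with a log2 fold change of −0.21 without control replicate 2. The locus, chr2:174284320-174346744, plus strand, also makes other imprinted transcripts, and the gene-level count sums them. Genes on the opposite strand cover 22.0% of its exonic bases.

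Gnao1, the α subunit of Go, stood further apart between the groups. Control samples had 554.9, 762.4 and 589.6 normalized counts and AKO samples 388.9, 408.1 and 362.5, so the AKO pools lay in a narrow range under all controls. The means were 636 ± 111 and 387 ± 22.9, a log2 fold change of −0.70 (SE 0.12, limma adjusted p = 0.205; exact permutation p = 0.1). DESeq2 called Gnao1 (adjusted p = 0.000334), also with each of the 6 samples left out in turn (adjusted p 0.000212 to 0.0317) and with the muscle score as a covariate (adjusted p = 0.000499). The score left the fold change as large, at −0.85 in limma. Gnao1 lies on chr8:93809966-93969388, plus strand. The 8 Schwann cell markers summed to 9139 to 10325 in control and 8274 to 10610 in AKO. Of these, 4 were lower and 4 higher in AKO, with a median log2 fold change of 0.0011. DESeq2 called 1 of the 8, S100b, at a log2 fold change of −0.90 (adjusted p = 0.00162). The part of Schwann cells in the Gnao1 value was not tested. The neuronal markers Th, Dbh and Npy had no row in the table.

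Among the 7 G protein α subunits of cAMP control, Gnas held 40.6 ± 2.84% of the level per kilobase in control and 35.5 ± 1.43% in AKO, and Gnao1 0.958 ± 0.126% and 0.631 ± 0.0478%. The inhibitory subunit Gnai2, the highest of the Gi family, averaged 8085 and 8016 normalized counts, close to equal. In the list of 19 G protein subunits and regulators of cAMP control, 9 were lower and 10 higher in AKO, with a median log2 fold change of 0.05 beside 0.01 for all genes tested.

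Adcy3, an adenylyl cyclase known from olfaction and obesity genetics that also makes cAMP in adipocytes, had 1328, 1520 and 1118 normalized counts in control and 781, 770 and 871 in AKO. Every AKO pool was below every control pool, with a wide gap. The means were 1322 ± 200.7 and 807 ± 55.1, a log2 fold change of −0.70 (SE 0.11, limma adjusted p = 0.196; exact permutation p = 0.1). DESeq2 called it (adjusted p = 7.84e-06), also with each sample left out in turn (adjusted p 2.1e-08 to 0.00259) and with the muscle score as a covariate (adjusted p = 0.00232, log2 fold change −0.75). Adcy3 lies on chr12:4133103-4213525, plus strand, and shares 22.1% of its exonic bases with Cenpo on the opposite strand. Whether the counting used strand is not stated, so the part of Cenpo reads in the Adcy3 count is not known. Cenpo had 99.3, 85.0 and 100.6 normalized counts in control and 97.0, 107.4 and 85.8 in AKO. At the downstream of the 2 RefSeq starts of Adcy3, the 244 bases chr12:4133903-4134146 (GRCm38.p6, plus strand) lie just before an annotated exon, inside the gene, and are shown to set beside the Adrb1 window. They hold no TGACG on either strand.
Adcy3 promoter: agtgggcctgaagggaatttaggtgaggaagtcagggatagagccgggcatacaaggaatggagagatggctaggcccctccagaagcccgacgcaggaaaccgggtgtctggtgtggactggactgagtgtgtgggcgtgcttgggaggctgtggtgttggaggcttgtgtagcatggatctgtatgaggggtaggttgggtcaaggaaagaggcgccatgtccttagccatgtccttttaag

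Adcy3 was the third cyclase by level in control. Adcy6 held 38.2 ± 1.66% of the cyclase level per kilobase in control and 39.4 ± 2.30% in AKO, and Adcy5 held 26.3 ± 1.84% and 27.2 ± 2.84%. The share of Adcy3 was 13.0 ± 1.16% in control, from 11.96 to 14.3%, and 8.82 ± 0.361% in AKO, from 8.56 to 9.23%, so the ranges did not meet. In AKO, Adcy4 (9.17 ± 0.288%) and Adcy9 (8.83 ± 0.638%) stood at or above Adcy3, with no difference beyond their spread between Adcy9 and Adcy3, while in control they were at 8.89 ± 0.585% and 8.45 ± 0.705%. The sum over the 10 cyclases was 1616 ± 108 and 1464 ± 43.4 normalized counts per kilobase. Adcy6 alone averaged a log2 fold change of −0.10 (SE 0.09) and Adcy5 −0.09 (SE 0.10), with overlapping groups, and of 9 cyclases tested 6 were lower and 3 higher, with a median of −0.09. Adcy7, abundant in immune cells, was at 0.28 (SE 0.10, limma adjusted p = 0.50), and the scarce Adcy2 at 1.08 (SE 0.33, limma adjusted p = 0.447), from 10.0, 18.3 and 21.3 normalized counts in control to 30.7, 32.2 and 41.5 in AKO. The summed macrophage markers were 10565 to 14918 in control and 13125 to 17902 in AKO, and their part in the Adcy7 value was not tested.

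**Figure D2:**
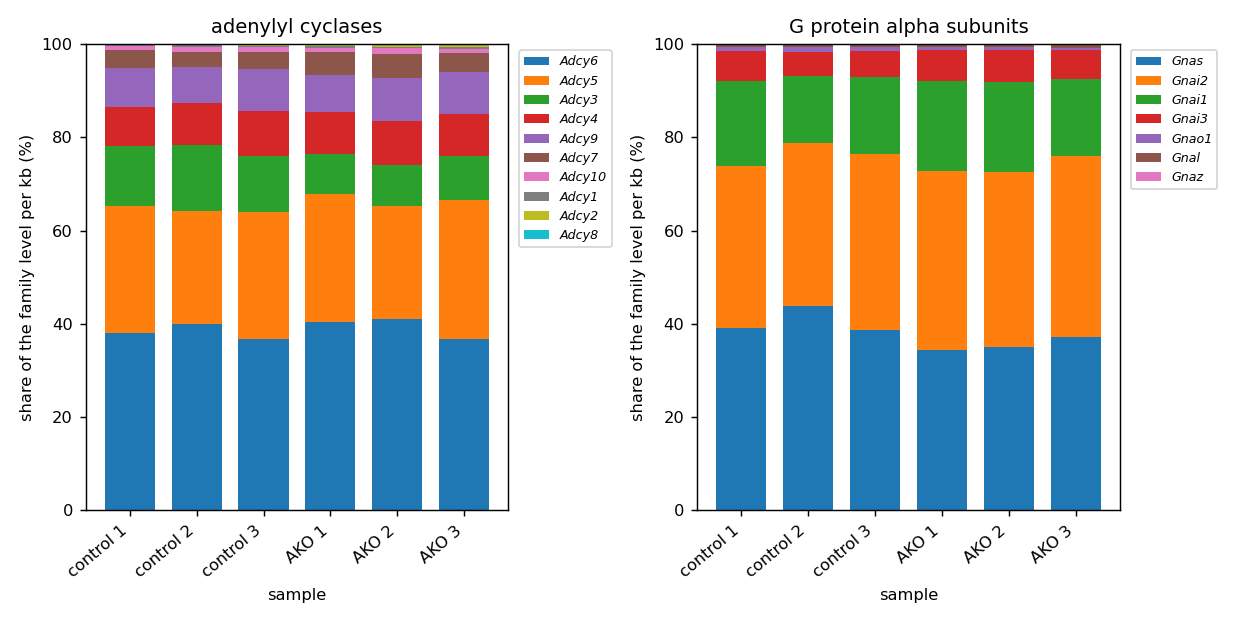
Share of each gene in the summed level per kilobase of exon (y axis, percent) of the 10 adenylyl cyclases and the 7 G protein α subunits in each of the 6 samples. The Adcy3 segment takes 11.96 to 14.3% in control and 8.56 to 9.23% in AKO, while Adcy6 and Adcy5 keep the largest shares in every sample.

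Pde3b, the phosphodiesterase through which insulin restrains lipolysis, had 9184, 7104 and 7731 normalized counts in control and 7728, 6851 and 7190 in AKO. Only the second AKO pool lay outside the control range. The means were 8006 ± 1067 and 7256 ± 442, a log2 fold change of −0.14 (SE 0.10, limma adjusted p = 0.75; exact permutation p = 0.4). Without control replicate 1 it was −0.03 and without control replicate 2 −0.22. With the muscle score as a covariate the sign turned, to a log2 fold change of 0.0340. Pde3b (chr7:114415281-114539251, plus strand) carried 41.8 ± 4.45% of the level per kilobase of the 16 cAMP phosphodiesterases in control and 41.3 ± 1.19% in AKO. Its share was thus the largest in the family and differed by less than the spread.

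Pde4d, a cAMP-specific phosphodiesterase, had 427.5, 570.0 and 559.1 normalized counts in control and 430.2, 414.0 and 462.8 in AKO. The first control pool lay among the AKO pools, and the other 2 above all of them. The means were 519 ± 79.3 and 436 ± 24.9, a log2 fold change of −0.24 (SE 0.12, limma adjusted p = 0.596; exact permutation p = 0.3). Without control replicate 1 the log2 fold change was −0.37, and without control replicate 2 it was −0.17. Control replicate 1 was also the pool with the fewest muscle reads. With the muscle score as a covariate the log2 fold change was −0.44 (limma adjusted p = 0.206). The part of muscle RNA in the Pde4d values was not tested. Pde4d spans chr13:108449948-109953461, plus strand. Of the 16 phosphodiesterases 12 were lower in AKO and 4 higher, with a median of −0.09. In 3 of the 16, every AKO pool was below every control pool, which held for 8.31% of all genes. These were Pde7b (log2 fold change −0.39, SE 0.09, limma adjusted p = 0.304), Pde4a (−0.37, SE 0.11, limma adjusted p = 0.414) and Pde8a (−0.14, SE 0.06, limma adjusted p = 0.55).

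**Figure D3:**
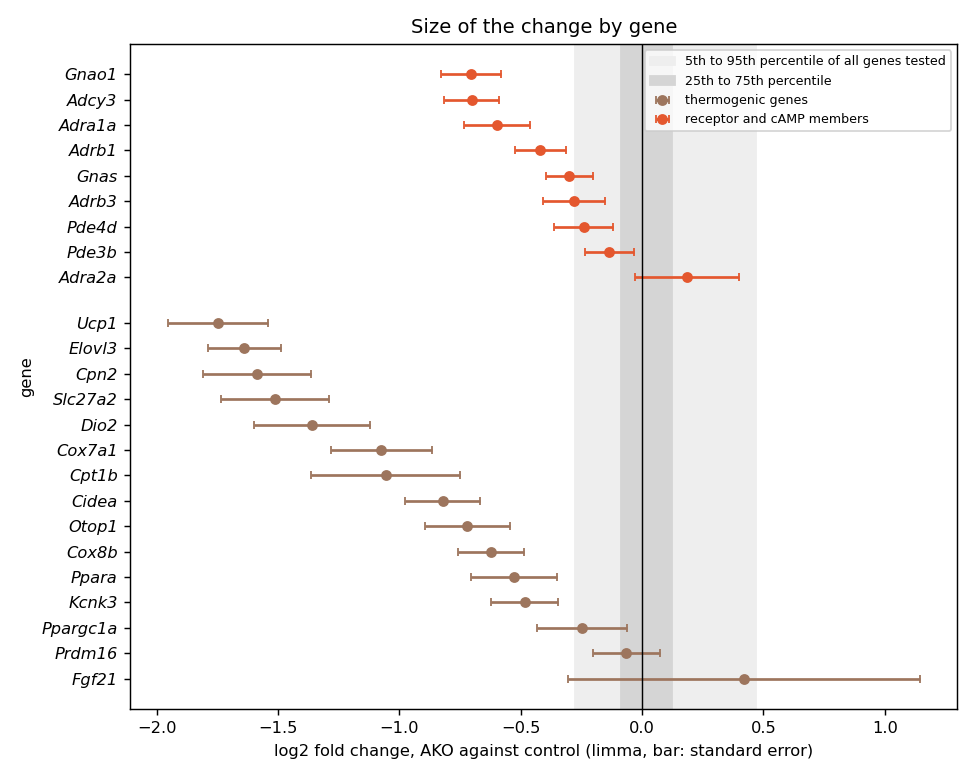
Log2 fold change of AKO against control from limma (x axis, 0 is no difference) with its standard error for the 9 genes and for 15 thermogenic genes, over bands that hold the middle of all genes tested. Gnao1 and Adcy3, at −0.70, lie outside the band from −0.28 to 0.47 that holds the 5th to 95th percentile, and Ucp1, at −1.75, lies further out than any of the 9.

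Downstream of cAMP, the regulatory PKA subunit RIIβ, Prkar2b, was the most abundant of 18 PKA, EPAC and anchoring genes per kilobase. It had 21939, 21683 and 19816 normalized counts in control and 18003, 17582 and 17223 in AKO, a log2 fold change of −0.26 (SE 0.07, limma adjusted p = 0.374), which DESeq2 called (adjusted p = 0.0247). With 1 sample left out at a time, the DESeq2 call was kept in 1 of 6 fits, without control replicate 3 (adjusted p = 0.000352), and otherwise the adjusted p was 0.0599 to 0.218. It was also lost with the muscle score as a covariate (DESeq2 adjusted p = 0.282, log2 fold change −0.23). Pkia, which encodes an inhibitor of PKA, went the other way, with 102.4, 148.4 and 129.1 in control and 174.8, 325.1 and 373.1 in AKO. Its log2 fold change was 1.14 (SE 0.28, limma adjusted p = 0.322), called by DESeq2 (adjusted p = 0.00121). That call was lost without control replicate 1 (DESeq2 adjusted p = 0.0859), AKO replicate 2 (0.0772) or AKO replicate 3 (0.191). Pkia mRNA is abundant in skeletal muscle, and the 3 AKO pools stood in the same order by Pkia and by summed muscle markers (23883, 91202 and 136352). Across groups this order did not hold. AKO replicate 1 had more Pkia than control replicate 2 (174.8 against 148.4) with fewer summed muscle markers (23883 against 32194). With the muscle score as a covariate, the log2 fold change of Pkia was 0.83 in DESeq2 (adjusted p = 0.368) and 0.78 in limma (adjusted p = 0.344), and the call was lost. The part of muscle RNA in the Pkia value was not tested. Popdc3, a cAMP-binding protein of striated muscle, had 0, 7.5 and 2.0 in control and 5.8, 23.4 and 27.0 in AKO. Prkar2a, another regulatory subunit, was at 0.16 (SE 0.06, limma adjusted p = 0.506). The list as a whole was mixed, with 7 genes lower and 11 higher and a median of 0.04.

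Receptor desensitization genes showed no common direction, with 5 of 12 lower and 7 higher. Grk2, the kinase that turns off β-receptors and the highest of the list per kilobase, had a log2 fold change of 0.04 (SE 0.06), Grk3 one of −0.53 (SE 0.18, limma adjusted p = 0.492) and Rgs7, a regulator of Gi and Go proteins, one of −0.28 (SE 0.07, limma adjusted p = 0.316). In the CREB family, 5 of 9 were lower, and the coactivator Crtc2, which cAMP releases to the nucleus, was at −0.17 (SE 0.06, limma adjusted p = 0.473) with 1638, 1597 and 1661 normalized counts in control and 1435, 1483 and 1438 in AKO. Among 11 other Gi-coupled receptors of fat, 7 were lower, including the lactate receptor Hcar1 (−0.22, SE 0.06, limma adjusted p = 0.374) and the niacin receptor Hcar2 (−0.39, SE 0.09, limma adjusted p = 0.315), while the lysophosphatidic acid receptor Lpar1 was higher (0.38, SE 0.11, limma adjusted p = 0.414). The thrombin receptor F2r was at −0.23 (SE 0.09, limma adjusted p = 0.51). Of 14 other genes tested for Gs-coupled receptors and their partners, 6 were lower and 8 higher. None had an unadjusted limma p under 0.05, against 4.69% lower and 4.41% higher of all genes. Ramp2, a receptor partner protein and the highest of these per kilobase, was at −0.04 (SE 0.09). Mc2r, the highest receptor, was at 0.17 (SE 0.09, limma adjusted p = 0.619).

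Beyond the 9 genes, 121 further genes of the pathway were tested. Of these 64 were lower and 57 higher in AKO, with a median log2 fold change of −0.0051, against 0.0070 for all genes. At an unadjusted limma p under 0.05, 14 were lower, Ucp1 and Dio2 among them, and 6 higher, against 4.69% and 4.41% of all genes. limma called 0 of the 121, against 0.0144% of all genes. DESeq2 called 3 as lower, Ucp1, Dio2 and Prkar2b, and 1 as higher, Pkia, against 0.757% and 0.241% of the genes it tested. Among the 15 cAMP-responsive genes, which include Ucp1 and Dio2, 10 were lower and 5 higher, with a median of −0.10, and the nuclear receptor Nr4a2 was at −0.34 (SE 0.13, limma adjusted p = 0.519).

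Of the 15 thermogenic genes 14 were lower in AKO, with a median log2 fold change of −0.82, beside −0.30 over the 9 genes. They ranged from −1.75 for Ucp1 to 0.42 for Fgf21, with Ppargc1a at −0.25 and Prdm16 at −0.06, and the difference between the 2 lists was not tested. limma called 1 of them, the fatty acid elongase Elovl3 (log2 fold change −1.64, SE 0.15, adjusted p = 0.0350), against 0.0144% of all genes. DESeq2 called 11 of the 15 as lower, against 0.757% of the genes it tested. This list was drawn up with earlier results of these samples known and is no independent evidence of direction. Ucp1, the mitochondrial uncoupling protein, had 18058, 25393 and 16827 normalized counts in control and 5401, 4836 and 7801 in AKO, a log2 fold change of −1.75 (SE 0.21, limma adjusted p = 0.0703). Dio2, the deiodinase that activates thyroid hormone, had 713.5, 636.6 and 525.6 in control and 241.0, 168.9 and 343.2 in AKO (−1.36, SE 0.24, limma adjusted p = 0.205). Cidea, a lipid droplet protein of brown and beige fat, had 4901, 7346 and 5343 in control and 2821, 3542 and 3483 in AKO (−0.82, SE 0.16, limma adjusted p = 0.227). For all 3 genes the groups did not overlap.

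To set the thermogenic genes beside the receptor and cAMP genes within each sample, their normalized counts were divided by those of each of the 9 genes and of Adipoq, 30 ratios in all. Ucp1 per Adrb3 count was 2.14, 3.25 and 2.35 in control and 0.707, 0.901 and 1.21 in AKO. The means were 2.58 ± 0.592 and 0.940 ± 0.255 (exact permutation p = 0.1, Benjamini-Hochberg adjusted 0.12). That p is the smallest that 3 against 3 samples allow, and most of the 30 ratios share it. Per Adcy3 count, Ucp1 was 15.1 ± 1.56 in control and 7.39 ± 1.40 in AKO (exact permutation p = 0.1). Ucp1 was lower in every AKO pool relative to each of the 9 genes, and Dio2 relative to 8 of them, the exception being Gnao1. Cidea differed from this pattern, since only 5 of its 9 ratios were separate. Cidea per Adcy3 was 4.43 ± 0.644 in control and 4.07 ± 0.496 in AKO, with overlapping groups (exact permutation p = 0.5), and Cidea per Gnao1 was 9.18 ± 0.413 and 8.51 ± 1.19 (exact permutation p = 0.4). Relative to Adipoq, Ucp1, Dio2 and Cidea were also lower in every AKO pool, at 0.315, 0.419 and 0.602 times the control mean (exact permutation p = 0.1 each). A lower ratio was thus not particular to the 9 genes. The ratios follow from the fold changes above and are no separate evidence. The data hold mRNA levels and no measure of receptor protein, cAMP or norepinephrine release, and the part of the 9 genes in the lower thermogenic mRNA was not tested.

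Markers of the sympathetic nerve could be followed only in part. The summed level of the markers with a row was 184.6 to 230.1 normalized counts in control and 193.3 to 226.6 in AKO, overlapping ranges, and Slc6a2, Ddc and Snap25 were under a mean of 10. Summed endothelial markers were 23755 to 26041 and 21627 to 24506, and summed mural markers 14862 to 17231 and 15296 to 18317, in control and AKO. Summed markers of adipose progenitors were 67767 to 96568 in control and 80771 to 109072 in AKO. The part of these cells in the values of the 9 genes was not tested.

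The genes whose pattern over the 6 samples was most like each of the 9 were found by Pearson correlation of log2(normalized count + 1) over all genes tested, as a description that includes the difference between groups. Adcy3 was closest to Acads (r = 0.994), Oplah and Ldhd, and Gnao1 to Decr1 (r = 0.997), Abcf3 and Ptges2. Acads and Decr1 encode enzymes of mitochondrial fatty acid oxidation, at log2 fold changes of −0.34 and −0.39. Adrb3 was closest to Csl (r = 0.989), the fatty acid receptor Ffar2 (r = 0.986) and Ctcfl, and Adrb1 to Cish (r = 0.993), Supt5 and Fam120aos. Adra1a was closest to Scp2, Adam12 and Gtf2ird1, Adra2a to Ptgir, Slc16a12 and Zfp456, and Gnas to R3hdm2, Mmadhc and Rbm17. Pde3b was closest to Tbc1d15 and Mir3064, and Pde4d to Crip2, Lyrm1 and Atp6v1d. With 6 samples high r is common, and 75 to 472 genes had an r over 0.9 with any given one of the 9.

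**Figure D4:**
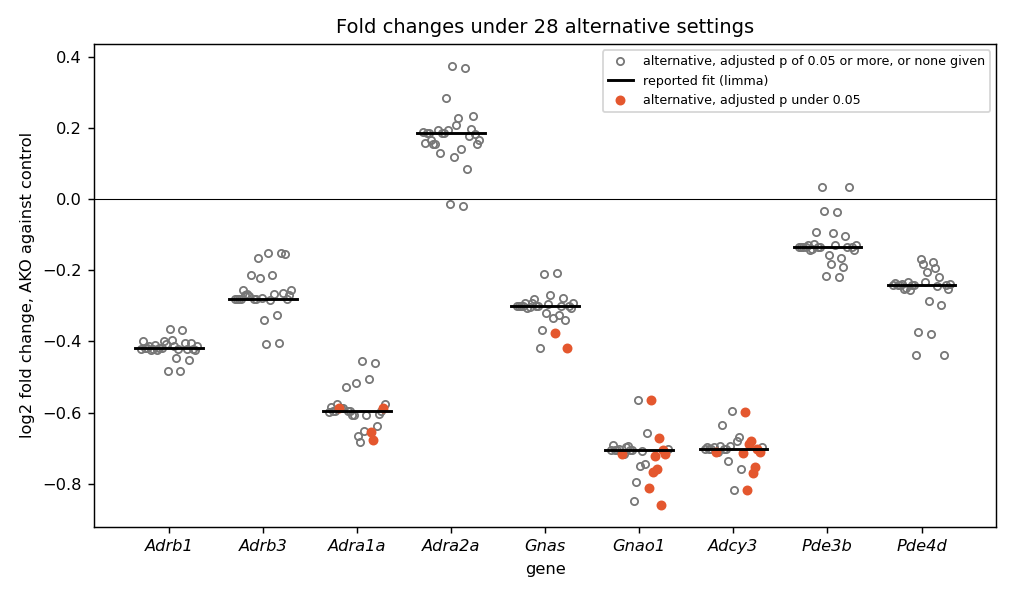
Log2 fold change of AKO against control (y axis) of each of the 9 genes in the reported limma fit (line) and under 28 alternative settings (points, filled where the adjusted p was under 0.05). Adcy3 and Gnao1 stay between −0.86 and −0.56 and each carries 10 filled points, all from DESeq2, while Adrb3 carries none.

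Across the 28 alternative settings, 248 of 252 fold changes of the 9 genes kept their direction, and the 4 that did not belonged to Adra2a and Pde3b. Calls were made in 26 of the 252, all by DESeq2: 10 for Adcy3, 10 for Gnao1, 4 for Adra1a and 2 for Gnas. Adrb1, Adrb3, Adra2a, Pde3b and Pde4d were called in none.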

How the data were processed

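Total RNA of iWAT was used for RNA-Seq in 6 samples, 3 control and 3 AKO, each pooled from 2 mice. STAR alignment to GRCm38.p6, featureCounts on GENCODE genes and DESeq2 normalization were run by the authors. The deposited values are a signal, read counts divided by a sample size factor, not by gene length, and the authors' own log2 fold change, p-value and adjusted p columns in the same table were not used. Strand use and the gene filter were not given in the sources used here.

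Dividing by the step between values gave whole reads for 100% of values within a tolerance of 0.05. Control replicate pairs and AKO pairs differed by more than read sampling. The test was limma 3.58.1 (R 4.3.3, variance trend) on log2(normalized count + 1) over genes with a mean of at least 10, two-sided, with Benjamini-Hochberg adjustment over all 13855 genes tested, beside an exact permutation test of 3 against 3 samples. edgeR 4.0.16 and DESeq2 1.42.0 on the recovered reads, other pseudocounts, filters and scalings, a replicate block, a muscle marker score as covariate and leaving out each sample were alternatives, 18 planned and 10 added after the data were seen. Adjusted p-values from edgeR, limma and DESeq2 rest on 3 samples a group. Fold changes on the log2(value + 1) scale understate those of low genes. The scripts were tested on simulated data. Exon lengths, overlaps and positions came from GENCODE M21 (GRCm38), where 95.95% of the symbols matched, and promoters from RefSeq.

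The 9 genes and the gene lists were chosen with earlier results of these data known. From each pathway list the text names the gene highest per kilobase and the non-members with the smallest unadjusted p under 0.05, at most 4. Neighbours named for comparison outside this rule, such as Adcy5 and Cenpo, were chosen after their values were seen. Some genes that this rule or the lists name are not reported here.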

Additional observations from a re-analysis of the deposited data

How the results depend on the processing

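The 9 genes kept their direction in all settings except 4. The log2 fold change of Adra2a was −0.0137 in limma and −0.0197 in DESeq2 without control replicate 2 (−0.0137 to 0.375 over the limma fits that left out 1 sample), and that of Pde3b was 0.0340 with the muscle score as covariate in limma and 0.0343 in DESeq2. The cause was not tested. The number of genes called over the whole table was 2 in the reported limma fit and depended on the tool: 6 where every sample had to reach 10 (fewer genes tested), 11 with robust shrinkage, 10 with robust edgeR, 149 with DESeq2, 134 with DESeq2 without independent filtering, and 0 with the muscle score as covariate in limma, against 146 in DESeq2. DESeq2 fits with a sample left out, the muscle score or the replicate block were run without independent filtering, so their like baseline is 134. Without that filtering and with all samples, DESeq2 still called Adra1a (adjusted p = 0.0177), Prkar2b (0.0274) and Pkia (0.00134). Leaving out each sample gave 0 to 3 genes in limma, and in DESeq2 136, 86 and 152 without control replicates 1, 2 and 3 and 148, 88 and 73 without AKO replicates 1, 2 and 3. The number of the 9 genes called was 0 in limma, and 3 in DESeq2, 3 without independent filtering, 3 with the muscle score and 2 to 3 with each sample left out. Of the other pathway genes 0 were called in limma, 1 (Ucp1) where every sample had to reach 10, 4 in DESeq2, 4 without independent filtering, 2 with the muscle score and 2 to 6 with each sample left out. A replicate block gave 2 genes in limma and 184 in DESeq2, with 0 and 2 of the 9 genes and 0 and 4 other pathway genes, and Adra1a was not called (DESeq2 adjusted p = 0.109). Replicate numbers did not pair the samples (correlations of same-numbered samples 0.135, −0.351 and 0.24). Where leave-one-out left 2 samples in a group, the spread was pooled over both groups. Adra2a had 41 to 76 reads per sample, and its control SD of 16.1 was above the 7.64 of read counting alone.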
